A study of Bos taurus with 2 samples.

Results

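The genes described here encode 10 proteins that the epididymis and the accessory sex glands of males secrete onto sperm or into seminal plasma: MSMB, CRISP1, LCN5, LCN8, RNASE9, RNASE10, ELSPBP1, SPAG11B, CES5A and PTGDS. Their probes were taken from 2 bovine expression arrays as all probes, other than control spots, that the array annotation lists under 1 of these names. By this rule 7 of the 10 genes were found, with 10 of the 51279 probes and 12 of the 61657 spots of each array, while LCN5, LCN8 and RNASE9 matched no probe and were not analysed here. The genes were selected with their differences between the arrays known, so their values are given as a description without a test.

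Testis RNA of 3 Holstein Friesian crossbred bulls with 50 to 75% exotic inheritance and of 3 Zebu bulls of the Tharparkar breed, all aged 24 months, was pooled by group in equal amounts, labelled with Cy3 and hybridized to 1 array per pool. The tissue came from 2 slices through the middle of the right testis, which was removed under sedation with xylazine and local lignocaine and freed of fat and fascia, by the same stated procedure in both groups. With 1 array of pooled animals in each group the arrays hold no replicate check. The spread between bulls cannot be given from them and no p-value was computed. The comparison asked how testis transcripts of a crossbred and a Zebu breed differ. In a whole tissue sample, fewer cells of a type and less RNA per cell cannot be told apart.

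After leaving the testis, sperm pass through the epididymis, whose epithelium secretes region by region a series of lipocalins, ribonuclease-like proteins, cysteine-rich CRISP proteins, beta-defensins and enzymes that coat the sperm surface. At ejaculation the seminal vesicles, ampullae and prostate add further proteins, among them fibronectin type II proteins that bind sperm phospholipids. Several of these genes depend on androgens, and many are known for strong expression in the epididymis, whereas PTGDS is also made within the testis.

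The array measures each transcript with probes of 60 bases, and the sequences of the probes on which the values rest are shown first because 3 genes were read by more than 1 probe and the probes of a gene did not give the same difference. They are written 5′ to 3′ as the array annotation gives them, with positions on the bovine build HGSC Btau 3.1. The MSMB probe with signal (probe 1) lies on the minus strand of chromosome 28, at chr28:44188782-44188841, and stands for the RefSeq transcript of MSMB. The other MSMB probe (probe 2), designed from an expressed sequence tag, lies 263 bases away on the same strand, at chr28:44189105-44189164. Probe 1 of SPAG11B lies at chr27:6177500-6177559 and probe 2 at chr27:6159740-6159799, 17700 bases apart and both on the minus strand of chromosome 27, and each was designed for a different annotated transcript of the gene. For MSMB and SPAG11B the first 30 bases are shown.
MSMB probe 1: ccaggtcaggcttcattctcctatggcctc
MSMB probe 2: tattggggtgcagatttctgagagtgacat
SPAG11B probe 1: tttccagatcaatacagtttttactggtag
SPAG11B probe 2: taggcaacacagtgtcatggactcttcact
Probe 1 of MSMB had a stop triplet in all of its forward reading frames, since 0 of its frames were open, while 1 frame of probe 2 and 2 frames of each SPAG11B probe were open. Where a position spans 60 bases, the probe matches 1 unbroken stretch of the genome.

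The remaining genes with signal were read by probes with open frames, and these are shown whole. The ELSPBP1 probe lies on the plus strand at chr18:54695654-54695713, and the CES5A probe on the plus strand of the same chromosome at chr18:24286704-24286763. The PTGDS probes lie on the minus strand of chromosome 11. Their annotated positions, chr11:109312713-109313379 for probe 1 and chr11:109314130-109314295 for probe 2, span 667 and 166 bases, more than the 60 bases of a probe, so each matches the genome in separate pieces.
ELSPBP1: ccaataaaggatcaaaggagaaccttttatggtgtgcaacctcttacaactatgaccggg
CES5A: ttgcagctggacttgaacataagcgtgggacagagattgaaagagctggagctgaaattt
PTGDS probe 1: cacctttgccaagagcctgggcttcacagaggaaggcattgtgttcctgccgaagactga
PTGDS probe 2: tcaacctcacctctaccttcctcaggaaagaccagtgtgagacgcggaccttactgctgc
No probe of these genes shared a run of more than 15 bases, in either orientation, with a probe of another gene name. Their GC content was 35 to 55%, against a median of 45% over all probes of the array.

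Signals are processed signals in scanner units, that is, spot brightness after subtraction of the background, each with the error that the scanner software estimated for that spot. Normalized values are the log2 of this signal minus the 75th percentile of the array, which stood at a signal of 1176 for the crossbred and 1233 for the Zebu pool, and every difference is crossbred minus Zebu. The spots of a probe on the same array differed with an SD of 0.29 for the crossbred and 0.18 for the Zebu pool (log2, 5960 probes), which gives 0.34 for a difference between single spots. This SD covers the spots of 1 hybridization and not the bulls. A spot was taken as detected where the scanner software marked it well above background, and a gene with several probes was read from the probe with the highest mean value over both arrays. Genes whose log2 difference reached 1.5 in either direction, a linear fold of 2.83, were counted as higher or lower if the brighter array was well above background.

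Of the 7 genes, MSMB, ELSPBP1, SPAG11B, CES5A and PTGDS (5) exceeded background well on both arrays, and CRISP1 and RNASE10 on neither. In crossbred testis MSMB, ELSPBP1 and SPAG11B exceeded 1.5, CES5A was nearest below that limit with 1.0, and PTGDS was the 1 gene with a negative difference. So 3 of 7 genes were counted as higher and 0 as lower. Over all 24751 gene names detected on at least 1 array, 7.12% were higher and 2.92% were lower by this rule, and since the genes were selected on this difference nothing is read from the comparison of the shares. After normexp background correction, another way to remove background, 1030 names were higher and 169 lower, against 1762 and 722 as given here. The median difference of the 5 detected genes was 1.99, and that of all detected names -0.05.

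**Figure D1:**
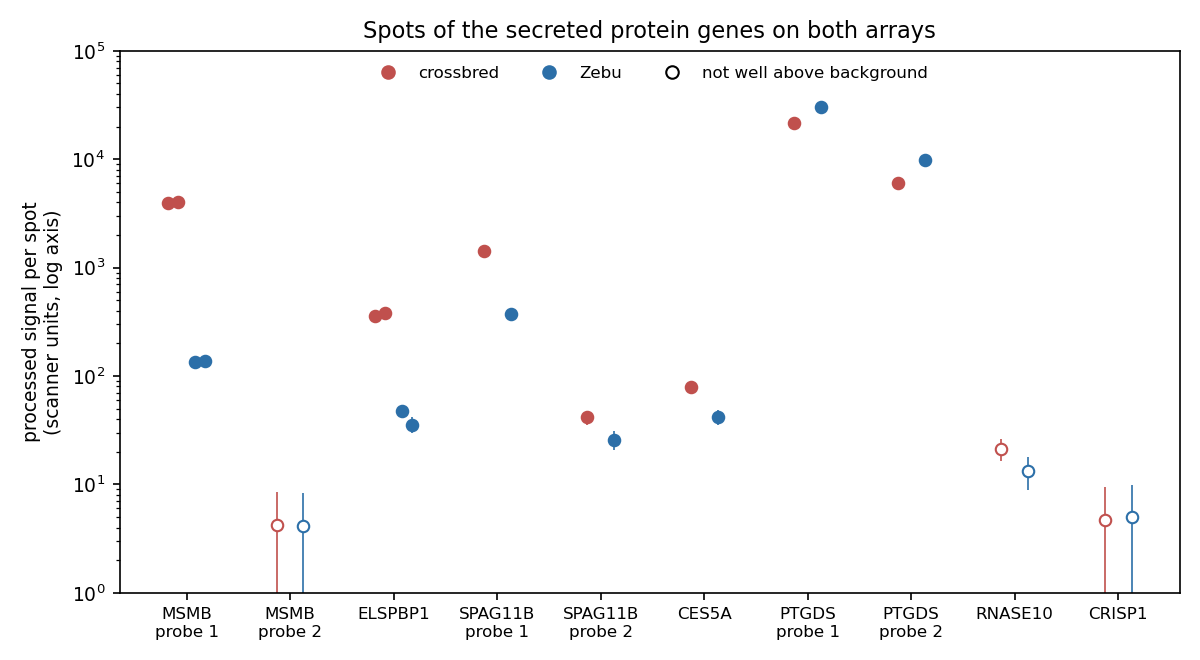
Processed signal of each spot (vertical log axis, scanner units) for the 10 probes of the 7 genes, crossbred in red and Zebu in blue, with bars for the error estimated by the scanner software. Bars that reach the lower edge are cut there and extend further down. The crossbred spots of MSMB probe 1, at 3935 and 4027, lie far above the Zebu spots at 133 and 138, whereas both PTGDS probes were brighter on the Zebu array.

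MSMB encodes beta-microseminoprotein, a small cysteine-rich protein that is among the abundant secretions of the prostate and is found in seminal plasma. The 2 spots of probe 1 had signals of 3935 ± 393 and 4027 ± 403 on the crossbred array. On the Zebu array the same spots had signals of 133 ± 14 and 138 ± 14.6. On the log2 scale, spots of the same pool lay within 0.03 (crossbred) and 0.05 (Zebu) of each other. This closeness concerns copies within a single hybridization and not the bulls. The normalized log2 value was 1.76 in crossbred and -3.18 in Zebu testis, a difference of 4.94 or 30.7-fold, and 48 of the 24751 detected gene names had a larger difference. The raw mean brightness before background subtraction was 4226 and 3694 for the crossbred pool and 210 and 193 for the Zebu pool.

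Probe 2 of MSMB, 263 bases away, had signals of 4.26 ± 4.28 in crossbred and 4.16 ± 4.17 in Zebu testis. Both values were not well above background, so no fold is given for it. On the arrays the difference of MSMB thus rests on 1 probe with 2 spots. The paper also measured MSMB by RT-qPCR, in testes of more males of each group than were pooled for the arrays. It reported the same direction without a significant difference.

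ELSPBP1 encodes epididymal sperm-binding protein 1, built from fibronectin type II domains, which attaches to sperm during their passage through the epididymis. Its probe had signals of 355 ± 35.9 and 377 ± 38.1 on the crossbred array. The Zebu spots had signals of 47.5 ± 6.49 and 35.6 ± 6.06. All 4 spots were well above background, and the difference was 2.97 in 1 pair of spots and 3.47 in the other, with a mean of 3.22 or 9.33-fold, which normexp correction reduced to 1.93. A predicted transcript of ELSPBP1 that the array lists under its accession had a probe of its own, with crossbred signals of 367 and 342 and Zebu signals of 80.1 and 66.8. That probe differed by 2.34, which is 5.08-fold, so separate sequences of the gene placed it in the same direction but at different sizes.

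SPAG11B encodes sperm associated antigen 11B, an epididymal protein related to the beta-defensins, which are small cationic peptides with antimicrobial activity. Probe 1 had a signal of 1418 ± 142 in crossbred and 373 ± 37.5 in Zebu testis. The normalized values were 0.27 and -1.72, a difference of 1.99 or 3.99-fold. Probe 2 had signals of 41.4 ± 6.19 and 25.8 ± 5.06, well above background on both arrays, and a difference of 0.75 or 1.68-fold. The probes of different SPAG11B transcripts thus had the same sign, while their differences lay 1.24 apart. The SD of 0.34 belongs to 1 difference between single spots and not to such a gap. Probe 2 was dim, with a normalized Zebu value of -5.58 beside -5.94 for the dimmest probe well above background on that array.

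CES5A, also known as cauxin or CES7, is a carboxylesterase, an enzyme that cleaves ester bonds, which the epididymal epithelium secretes. Its probe had a signal of 79.4 ± 9.32 in crossbred and 41.6 ± 6.47 in Zebu testis. The difference was 1.0, a 2.0-fold higher value in crossbred testis that stayed below the limit of 1.5. The probe of a predicted transcript of the gene had crossbred signals of 36.5 and 28.2, both well above background, and Zebu signals of 20.9 and 15.5, which were not. By this probe CES5A was at least 1.67-fold higher in crossbred testis, taking for the Zebu array the lowest value there of any probe well above background or the probe's own where that was higher. Such bounds are used below for the genes of the families, roles and marker sets where 1 array was not well above background. They hold on the scale of this processed signal, and normexp background correction gave smaller differences for some genes, as given below.

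PTGDS encodes lipocalin-type prostaglandin D synthase, which makes prostaglandin D2, carries small lipophilic molecules and is found in seminal plasma. Probe 1 had a signal of 21454 ± 2145 in crossbred and 30310 ± 3031 in Zebu testis. Probe 2 had signals of 6010 ± 601 and 9908 ± 991. The differences were -0.43 and -0.65, or 1.35-fold and 1.57-fold lower in crossbred testis, and the probes lay 0.22 apart. Each difference was larger in size than the spot SD of 0.34, which does not cover the bulls, and well short of 1.5.

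CRISP1 encodes a cysteine-rich secretory protein of the epididymis that takes part in the binding of sperm to the egg, and RNASE10 encodes a ribonuclease-like protein of the proximal epididymis without known enzyme activity. CRISP1 had signals of 4.71 ± 4.73 in crossbred and 4.99 ± 4.86 in Zebu testis. RNASE10 had signals of 21.3 ± 4.88 and 13.4 ± 4.61. None of these spots was well above background. Probes of predicted transcripts of the same genes were not well above background either, at 6.49 and 5.46 in crossbred and 13.1 and 5.03 in Zebu testis for CRISP1 and at 12.1 and 14.4 against 9.74 and 13.4 for RNASE10. No level or fold could therefore be given for these 2 genes at the sensitivity of the array, which is not evidence that their RNA was absent.

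**Figure D2:**
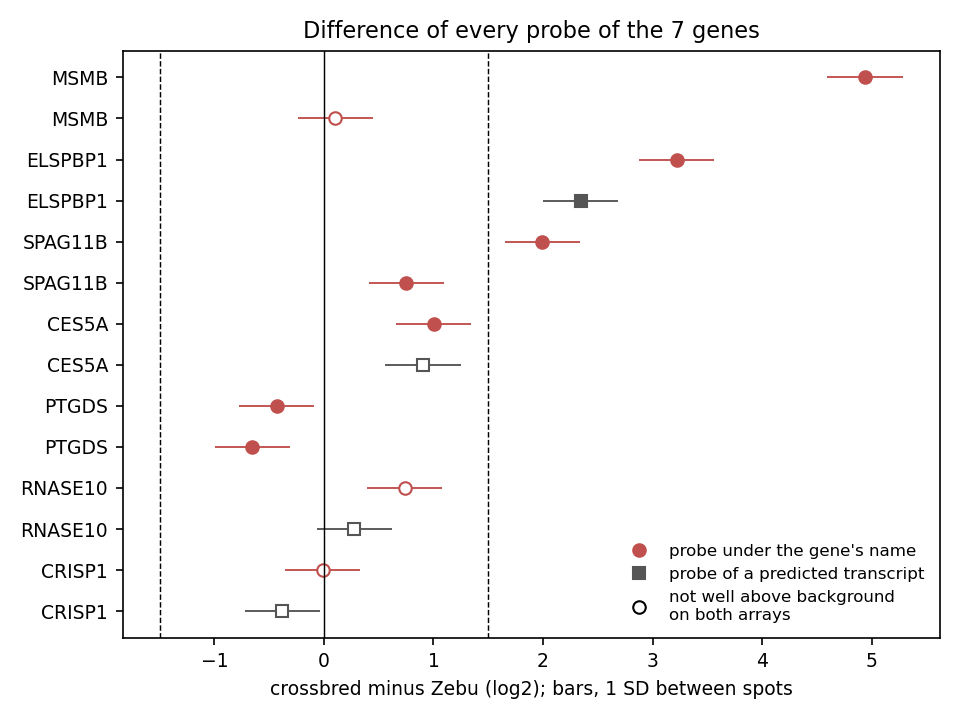
Difference between the arrays (horizontal axis, crossbred minus Zebu, log2) for the 10 probes listed under the names of the genes (red circles) and the 4 probes of predicted transcripts (grey squares), with bars of 1 SD between spots (0.34) and dashed lines at 1.5 in either direction. Open symbols were not well above background on both arrays. MSMB probe 1 at 4.94, both ELSPBP1 probes at 3.22 and 2.34 and SPAG11B probe 1 at 1.99 lie beyond the right dashed line.

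Of the 10 probes under the names of the genes, 7 stood well above background in both pools and 3 in neither, and 5 of the 7 had a positive difference. There were 3 probes higher by 1.5 or more, beside 6.14% of the 39804 probes detected on at least 1 array. At a linear fold of 1.5 the number was 5, beside 20.0% of all detected probes. In 2 places of the crossbred array, 1 dark and 1 bright, neighbouring spots share a shift, and 0 of the spots of these genes lay in them. The median difference of the 18 spots nearest to each of the 12 spots ran from -0.11 to 0.41, so the surroundings of a spot moved far less than MSMB, ELSPBP1 or SPAG11B probe 1.

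**Figure D3:**
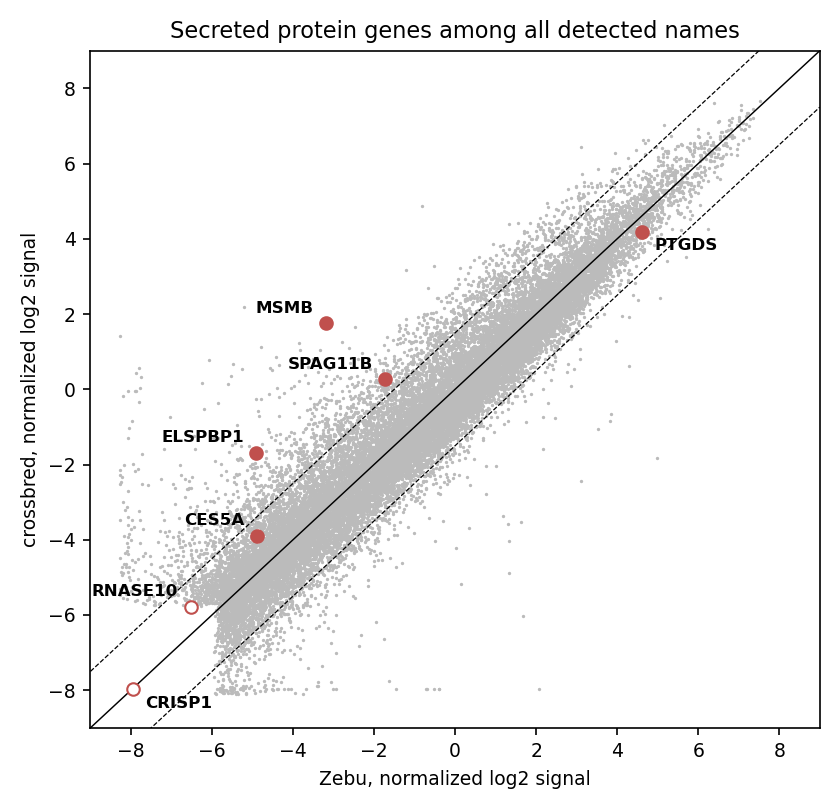
Normalized log2 signal on the Zebu array (horizontal) and the crossbred array (vertical) of the 24751 gene names detected on at least 1 array (grey) and of the 7 secreted protein genes (red, open where not well above background on either array). The solid line marks equal values and the dashed lines a difference of 1.5. MSMB lies at -3.18 and 1.76, far above the upper dashed line, ELSPBP1 and SPAG11B lie above it, and PTGDS lies just under the solid line.

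The wider families were then described. For the counts in the lists, neighbourhoods and marker sets below, the shares over all detected names were 7.12% higher and 2.92% lower. Lipocalins are small barrel-shaped carriers of lipophilic molecules, and LCN5, LCN8 and PTGDS belong to them. Of 14 lipocalins on the array 11 were detected, with a median difference of 0.19, 1 higher and 0 lower. The 1 counted as higher was LCN6, an epididymal lipocalin, with normalized values of -4.08 in crossbred and -6.82 in Zebu testis. In the Zebu pool it did not stand well above background, so on this scale it was at least 3.64-fold higher in crossbred testis. Normexp background correction reduced its measured difference to 0.81, or 1.75-fold, below the limit. Among lipocalins detected on both arrays, RBP4, which carries retinol in blood, had the lowest difference with -0.79, followed by APOD, a carrier of lipids, with -0.52. ORM1, an acute-phase protein, with 1.21 and LCN2, which binds iron carriers of bacteria, with 0.62 had the highest.

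In the ribonuclease A family 7 of 12 genes were detected, with a median of 0.96. RNASE6, an antimicrobial ribonuclease of leukocytes, was the 1 counted as higher with 1.54, and its 2 other probes had 1.67 and 1.71, but quantile normalization gave 1.40 and normexp 1.45. ANG2, an angiogenin, had 1.24, or 0.41 by its other probe, and BRB, the brain ribonuclease, and RNASE4 had -0.82 and -0.05. RNASE1 had 1.18 by the probe read here. Its other detected probe, well above background in crossbred testis alone, was at least 2.88-fold higher there and so passed the limit. RNASE10, RNASE11, RNASE13, RNASE3 and RNASE7 were not well above background on either array.

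Of 11 genes of the CAP family, to which the CRISP proteins belong, 8 were detected. Read from their brightest probes, 0 passed 1.5 in either direction, with a median of 0.22. CRISP3 with 1.46 and PI16 with 1.41 had the highest differences, and CRISPLD1 with -1.31 and CRISPLD2 with -0.64 the lowest. CRISP2 lay just below PI16 by its brightest probe, but its other probe, detected on both arrays, had 1.80 and passed the limit. CRISP1 itself was among the 3 that were not detected.

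ELSPBP1 belongs with the binder of sperm proteins BSP1, BSP3 and BSP5, which the seminal vesicles of bulls secrete and which carry fibronectin type II domains. Of these 4 genes 3 were detected and 2 counted as higher, with a median of 0.47, which is the bound of BSP3. BSP5 was not well above background on either array. BSP1 and BSP3 were well above background on the crossbred array, close to its limit of detection, with normalized values of -5.67 and -5.47. They were at least 1.2-fold and at least 1.38-fold higher than on the Zebu array, where their values were -5.96 and -8.26. The measured difference of BSP3 counted it as higher with 2.79, but its bound stayed far below that and normexp background correction gave 0.56.

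Among carboxylesterases other than CES5A, CES1, a liver enzyme, differed by 1.27, and its 2 other probes were each detected on 1 array, with 1 of them at least 6.42-fold higher in crossbred testis and no fold for the other, detected in Zebu testis. CES2 differed by 0.51 and CES3 by 0.09. Read from their brightest probes, 0 of the 6 on the array, 5 of them detected, passed 1.5, with a median of 0.51.

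Of 13 beta-defensin names, SPAG11B included, 12 were detected, 5 were higher and 0 lower by 1.5, and the median was 0.37. Beside SPAG11B, the higher ones were DEFB122A, DEFB122, DEFB124 and DEFB103B. DEFB122A had normalized values of 3.27 in crossbred and -0.52 in Zebu testis, a difference of 3.79. DEFB122 had 3.23 and 0.13, a difference of 3.1, while 2.18 and 2.44 were measured with the 2 other probes. DEFB124 had -1.13 and -4.04, a difference of 2.91. DEFB103B differed by 2.22 with its brightest probe and 0.97 with the other, and by 1.12 after normexp background correction. The other names lay near 0 or below, with DEFB119 at 0.38, DEFB123 at -0.32 and the name DEFB lowest at -1.48. DEFB passed the limit with -1.51 when the 75th percentile was taken over probes detected on both arrays and with -1.52 after quantile normalization. It stayed short of the limit with -0.93 after normexp correction and with -0.92 by its other probe. By the probes read here, the 7 other detected names thus lay between -1.48 and 0.38.

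**Figure D4:**
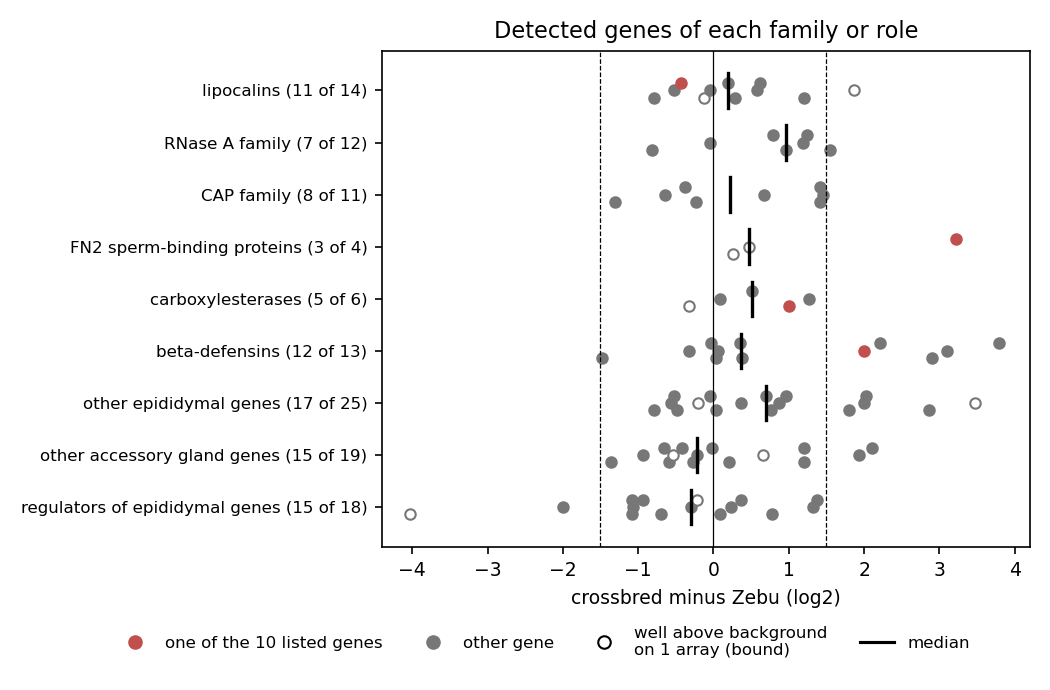
Difference between the arrays (horizontal axis, crossbred minus Zebu, log2) of each detected gene in the families and roles described, with the number detected of the number on the array, the median as a black bar and dashed lines at 1.5 in either direction. Open circles are bounds for genes well above background on 1 array. The beta-defensins hold 5 genes and the other epididymal genes 5 genes counted as higher, while the medians of all lists lie between -0.30 and 0.96.

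Among 25 other genes known for epididymal secretion or surface proteins, 17 were detected, 5 were higher and 0 lower, and the median was 0.70. GPX5, a glutathione peroxidase secreted by the epididymis, had crossbred signals of 224 and 303 and Zebu signals of 21.5 and 28.1, of which the last alone was well above background. The spot with 224 was in the dark patch of that array, and the differences of the 2 spots were 3.45 and 3.50. The gene was at least 11.1-fold higher in crossbred testis on this scale, while normexp correction gave a difference of 1.89, or 3.7-fold. CST8, a cystatin of the epididymis and testis, had normalized values of 2.43 and -0.44, a difference of 2.87, and 2.98 by its other probe. ACE, the angiotensin-converting enzyme, which has a form made by spermatids, had 2.03 and was just below the limit with 1.48 after normexp correction. ANPEP, an aminopeptidase, with 2.0 and WFDC11, a whey acidic protein family member, with 1.80 completed the 5. NPC2, a cholesterol carrier abundant in epididymal fluid, with -0.79 and TCN2, a cobalamin carrier, with -0.57 were the lowest, and ADAM7 and CST11 matched no probe.

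Of 19 other accessory gland genes 15 were detected, with a median of -0.21, 2 higher and 0 lower. They were SPADH1, a spermadhesin of seminal plasma, with normalized values of 1.87 and -0.06 and a difference of 1.93, and PIP, the prolactin-induced protein, with -0.43 and -2.53 and a difference of 2.10. The other SPADH1 probe had 1.83. FOLH1, a membrane peptidase, had -0.94, and its other probe, detected in Zebu testis alone, was at least 2.97-fold lower in crossbred testis.

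Among 18 regulators of epididymal genes 15 were detected, 0 were higher and 3 were lower, with a median of -0.30. HNF4A with 1.38 and CEBPB with 1.32, both transcription factors, were highest. The 2 other detected probes of HNF4A, well above background in crossbred testis alone, were at least 2.03-fold and at least 1.78-fold higher there. But the other detected probe of CEBPB, well above background in Zebu testis alone, was at least 1.04-fold lower in crossbred testis. HOXD10 differed by -1.99, and its other probe, detected on the Zebu array alone, was at least 1.52-fold lower in crossbred testis. The other names counted as lower, HOXA9 and HOXA10, were detected on the Zebu array alone. HOXA9 was at least 16.3-fold lower in crossbred testis by the probe read here and at least 1.32-fold by its second probe, while HOXA10 was at least 1.16-fold lower. After normexp correction the difference of HOXA9 was -2.35, or 5.09-fold, and HOXD10 with -0.91 and HOXA10 with -0.38 no longer passed the limit, which left 1 lower name. ETV5, an ETS factor, had -1.08.

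On the array annotation, 8 gene names had a probe within 250000 bases of an MSMB probe, all of them detected, with a median difference of 0.15. Among them 2 were higher by 1.5 or more, C28H10orf53 with 1.84 and OGDHL, a dehydrogenase subunit, with 1.56. Near SPAG11B 6 of 7 names were detected, with a median of 0.67. DEFB103B, described above, and the transcript contig TC444532, at -3.47 in crossbred and not well above background in Zebu testis, were higher. The measured difference of TC444532 was 4.49. Near PTGDS 22 of 26 names were detected, with a median of 0.22. LCN6 was the 1 counted as higher there, and C8G with -0.04 and LCN1 with 0.19, lipocalins of the same cluster, were not. Near RNASE10 18 of 23 names were detected, with a median of -0.32. RNASE6 was higher, and so was the contig TC438702 with a measured 1.85, detected in crossbred testis alone. KLHL33, detected in Zebu testis alone, was lower with a measured -3.07. Near ELSPBP1 17 of 21 names, near CES5A 4 of 4 and near CRISP1 5 of 7 were detected, with medians of 0.14, 0.34 and 1.06 and 0 higher names. A single name near ELSPBP1, NP13360232, detected in Zebu testis alone, was lower with a measured -1.60. For TC444532, TC438702, KLHL33 and NP13360232 the call rests on a value not well above background on 1 array, and no bound is given. CRISP2 and CRISP3, which lie near CRISP1, had 1.41 and 1.46 by their brightest probes, and the other CRISP2 probe had 1.80. The names outside the lists were chosen for mention after their values were seen.

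The tissue label was checked with marker genes. All 8 spermatid markers and all 6 markers each of spermatogonia, Leydig cells and peritubular cells stood well above background in both pools, with PRM1, a protamine of sperm chromatin, at 7.43 in crossbred and 7.07 in Zebu testis. The spermatid markers had a median difference of 1.73 and 6 of 8 were higher, and their summed signal was 633968 in crossbred and 338631 in Zebu testis. The 4 spermatocyte markers had a median of 0.52. Negative medians were found for Sertoli cells with -1.0, spermatogonia with -0.80, Leydig cells with -0.79 and peritubular and smooth muscle cells with -0.77. Of 6 detected markers in each of these lists, 1 Sertoli, 1 spermatogonia, 2 Leydig and 0 peritubular markers were lower, and 0 were higher. After normexp correction the 2 Leydig markers alone remained lower. The 5 macrophage markers had a median of 0.20 with AIF1 higher at 1.95, and of 4 red blood cell markers HBA alone was detected, with -2.15. Epithelial markers, all 6 detected, had a median of 0.14 and summed to 28020 and 22483, of which EPCAM gave 24561 and 19308. Their part in the differences of MSMB, ELSPBP1 and SPAG11B was not tested.

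Of the 6 epididymis markers on the array that are not among the 10 genes, CST8, GPX5 and LCN6 were detected and higher, with a summed signal over all 6 of 6705 in crossbred and 970 in Zebu testis, of which CST8, made in the testis too, gave 6339 and 912, and ADAM28, AQP9 and LCN9 were not well above background on either array. Of 9 markers of seminal vesicle, ampulla and prostate 7 were detected, with a median of 0.27, which is the bound of BSP1, and sums of 25106 and 27180, of which ACPP gave 19542 and 23745, and BSP5 and SPADH2 were not detected. The part of epididymal or duct tissue in these values was not tested.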

How the data were processed

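Pooled testis RNA of each group was measured on 1 single-colour array. Per the file headers, the deposited processed signal is an intensity that Agilent Feature Extraction 11.5.1.1 had background-subtracted and detrended. The authors also deposited log2 values shifted to the 75th percentile in GeneSpring, used here as an alternative. Control spots and 13 outlier spots were left out, log2 signals were averaged within each probe and shifted by the 75th percentile over probes. No spot was saturated, and precision is limited by 1 array per group.

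Named were the 10 genes with every probe, in each family or role list the 2 highest and 2 lowest differences among genes detected on both arrays, 12 further epididymal, accessory gland and regulator genes fixed by name, and the few other counted genes. Values of 2 of these genes are not reported here. The members and lists were chosen with earlier results of these data known. Protein and promoter features were not analysed here. The alternatives were normexp (offset 50), median shift, another percentile set, quantile normalization, the authors' values, other probe rules, no spots from the marked places and other thresholds, and 1 further probe rule was added after seeing the data. The steps were tested on simulated data in which only bright probes were changed, so dim probes and bounds were not covered. The software was limma 3.58.1 in R 4.3.3, and numpy 2.4.6 and pandas 2.3.3 in Python 3.11.15.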

Additional observations from a re-analysis of the deposited data

How the results depend on the processing

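No paired analysis was possible because each group has 1 array. The count of 3 higher genes was between 2 and 4 in all 12 alternatives, and the count of 3 higher probes was 3 or 4 except at a linear fold of 1.5, where it was 5. The median difference of 1.99 became 1.37 when the probes of a name were averaged, with the dim side at its bound or not, and also when probes of predicted transcripts were added. It lay between 1.85 and 1.99 in the other 7. The cause was the second probe of SPAG11B, which gave this gene 1.37. MSMB kept a positive difference in all 9 alternatives, from 2.52 as the average of its probes to 4.94, with 4.36 after normexp, ELSPBP1 from 1.93 after normexp to 3.22, SPAG11B from 1.37 to 1.99 and CES5A from 0.52 to 1.01. PTGDS was negative in all 9, from -0.63 to -0.43. No called value changed sign. Dim spots limit CRISP1, RNASE10 and the Zebu values of ELSPBP1, and no repeat of a pool shows the spread between bulls.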
